A study of Homo sapiens with 6 samples.

Results

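The Notch genes described here are 10 members of the 23152 genes in the deposited table, chosen by their symbols. They are the receptors NOTCH1, NOTCH2 and NOTCH3, the ligands JAG1, JAG2 and DLL1, and the targets HES1, HES4, HEY1 and NRARP. RNA sequencing was performed on T24 cells, an established human bladder cancer cell line, in 3 samples carrying the vector (vector) and 3 samples overexpressing RNF112, an E3 ubiquitin ligase (oeRNF112). According to the design text, the experiment was made to find what acts downstream of RNF112 in bladder cancer. Both groups were grown in RPMI medium with fetal bovine serum. The labels give neither the time after transfection nor whether the overexpression was transient, and their treatment text names siRNA transfection although both groups are labelled by vector or overexpression. The labels do not say whether the 3 samples of a group were separate cultures, so the p-values measure the spread between these samples, which may be technical. In bulk RNA, a change in the number of expressing cells and a change in RNA per cell cannot be told apart.

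Notch receptors are membrane proteins that are cut after they bind a ligand of the JAG or DLL families on a neighbouring cell. The freed intracellular part enters the nucleus, joins the DNA-binding protein RBPJ and the MAML coactivators, and switches on genes of the HES and HEY families, which encode transcriptional repressors. In the urothelium and its tumors the pathway is known for roles in both differentiation and growth, and inactivating mutations of its receptors occur in bladder cancer.

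HES1 fell to 48.7% of the vector level in oeRNF112, while HES4, DLL1 and JAG2 rose by 1.82, 3.68 and 2.56 times. The receptors NOTCH1 and NOTCH2, the ligand JAG1 and the targets HEY1 and NRARP did not pass the test, and NOTCH3 was too low to be tested. HES1 and HES4, the most abundant of the 4 targets, thus changed in opposite directions.

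The bases before the start of these 2 genes are shown first, because both hold the letters that RBPJ is known to bind. The sequences are the 250 bases upstream of the RefSeq start on GRCh38.p14, written 5′ to 3′ on the strand of the gene. Capitals mark matches to GTGNGAA, a form of the RBPJ site, on either strand. HES1 lies on the plus strand at chr3:194135898-194136147 and HES4 on the minus strand at chr1:1000098-1000347.
HES1: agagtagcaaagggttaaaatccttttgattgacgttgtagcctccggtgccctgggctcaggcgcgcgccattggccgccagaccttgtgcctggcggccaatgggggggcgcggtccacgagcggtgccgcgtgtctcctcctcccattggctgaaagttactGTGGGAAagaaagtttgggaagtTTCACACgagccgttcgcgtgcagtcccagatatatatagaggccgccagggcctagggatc
HES4: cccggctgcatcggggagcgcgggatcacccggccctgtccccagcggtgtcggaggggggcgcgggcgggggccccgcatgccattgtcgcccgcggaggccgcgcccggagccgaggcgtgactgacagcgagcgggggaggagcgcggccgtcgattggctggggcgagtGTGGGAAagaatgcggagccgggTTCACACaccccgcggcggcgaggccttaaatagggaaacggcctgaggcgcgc

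In both windows a GTGGGAA on the strand of the gene faces a GTGTGAA on the opposite strand, with 16 bases between them. Counted from the base before the start as -1, the first site begins at -85 in HES1 and at -77 in HES4. The longest run of letters shared by the windows, of 12 bases, is tGTGGGAAagaa, which contains this site. Promoters were given for 8 of the 10 members, all but DLL1 and HEY1, and the other 6 had no match to GTGNGAA in the 250 bases. At least 1 match was present in 11.6% of the 35116 promoters, and a facing pair whose first bases were 20 to 30 bases apart was present in 13 of them (0.037%). This spacing was set after the HES1 and HES4 windows had been seen. Of the 13 genes, 7 were tested, and HES1 was the 1 that fell and HES4 the 1 that rose. Over all genes tested, 8.14% fell and 9.97% rose at the threshold given below. As HES1 and HES4 set the spacing, these numbers are a description and not a test. The other 5 did not pass. They were PRKAR1B (log2 fold change -0.32, adjusted p = 0.0739 in edgeR), MGA (0.15, 0.662) and RRP7A (-0.14, 0.412). ITIH4 (0.91, 0.278) and LINC02742 (-0.74, 0.145) had at most 30 and 31 counts per sample. The letters CACGTG, an E-box bound by bHLH proteins, were in 6.34% of all promoters and in none of the 8 windows of the members.

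The total counts, that is reads assigned to genes, ranged from 40029547 to 41259569. The groups were apart in the number of genes with a count, 18733 to 18773 in vector and 19488 to 19531 in oeRNF112, and in their TMM factors, 0.957 to 0.988 and 1.01 to 1.05. The part of this in the rise of genes with few counts was not tested. RNF112 itself counted 27, 19 and 24 reads in vector against 29753, 36963 and 31712 in oeRNF112, which may include reads from the introduced construct. Levels are given as CPM (counts per 1000000 reads after scaling by TMM factors), and 14467 genes passed edgeR's filter on low counts and entered its quasi-likelihood test. A gene was said to rise or fall at a Benjamini-Hochberg adjusted p under 0.05 over all genes tested. Between the groups 1442 genes rose and 1178 fell, and 2020 rose and 659 fell when samples were scaled by library totals alone, which placed the median gene at a log2 fold change of 0.096. Of the 16 urothelial markers listed, KRT7, KRT8 and KRT18, keratins of simple epithelium, were abundant, with 49889 to 64094 counts of KRT7 in vector. TP63, KRT20, UPK2 and UPK3A, which mark basal cells or the differentiated surface layer, had at most 7 counts per sample. UPK1A, also of the surface layer, had 4 to 20 counts. Of the other markers on this list, GATA3 had 117 to 173 counts and PPARG 2056 to 2485. The summed level of the 5 endothelial markers was between 0.607 and 1.19 CPM in vector and between 1.23 and 1.70 CPM in oeRNF112. That of the 6 leukocyte markers went from 9.43 to 10.8 CPM in vector, and from 5.35 to 7.89 CPM in oeRNF112. Among them CD3E and TYROBP, which define T cells and myeloid cells, had at most 4 counts, PTPRC had 24 to 54, CD14 53 to 91 and LAPTM5 108 to 293. LAPTM5 fell by 0.88 on the log2 scale (edgeR adjusted p = 0.0308). The 14 urothelial markers in the table summed to 3635 to 4655 CPM in vector and 2801 to 3338 CPM in oeRNF112, where FOXA1, KRT7 and KRT18 fell and EPCAM rose. The 5 fibroblast markers summed to 9.46 to 11.8 CPM in vector and 11.8 to 12.2 CPM in oeRNF112. The part of these markers in the results below was not tested.

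Of the 9 Notch genes that were tested, 3 rose and 1 fell, while 18.1% of all genes tested changed in either direction. Over all genes tested, 9.97% rose and 8.14% fell. Vector and oeRNF112 values were fully apart for 5 of the 9 genes, 4 of them higher in oeRNF112 and 1 lower, against 36.8% of all genes tested (18.9% higher and 17.9% lower). The 9 genes had a median log2 fold change of 0.35, beside 0.0027 over all genes tested. The 9 genes do not include NOTCH3, which failed the filter on low counts. The members and the further lists were chosen with earlier results of these data known, so these shares are a description and not a test.

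**Figure D1:**
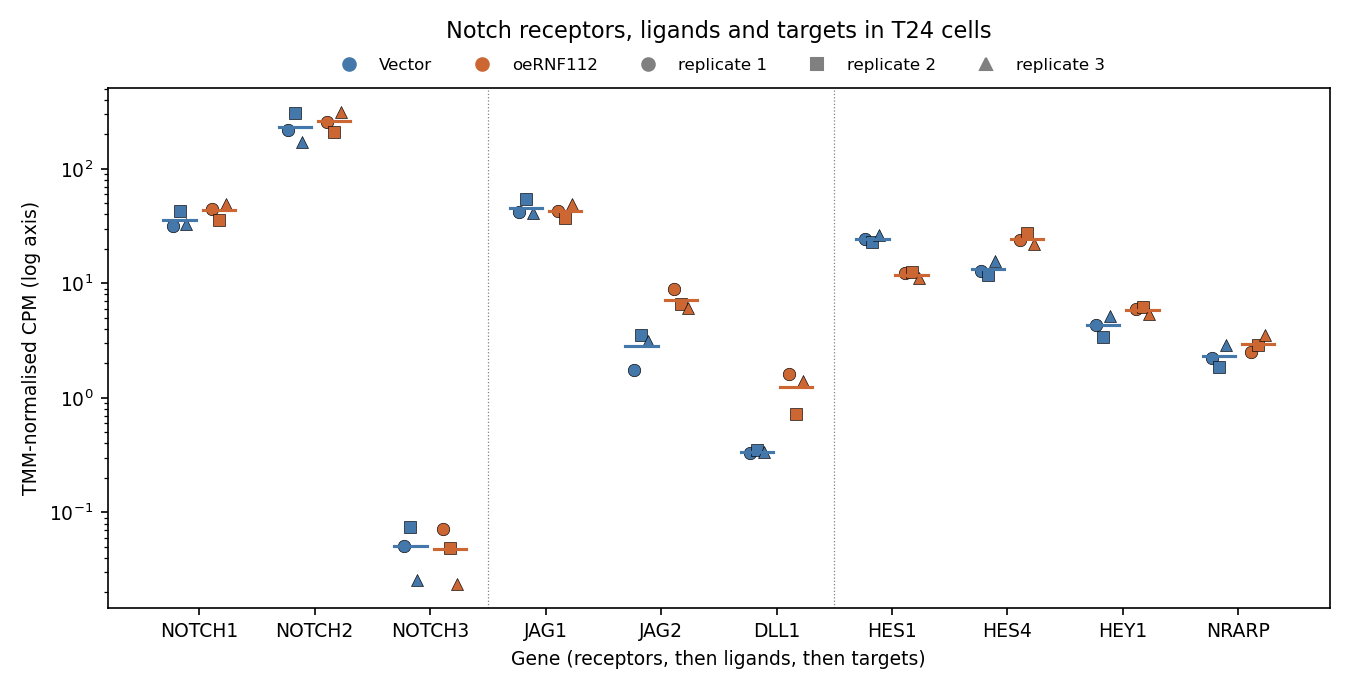
TMM-normalised CPM (log axis) of the 10 Notch genes in each vector and oeRNF112 sample, with a horizontal bar at the mean of each group and a marker shape for each replicate. The oeRNF112 points lie above all vector points for JAG2, DLL1, HES4 and HEY1 and below them for HES1, and the groups overlap for the other genes.

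Among the receptors, NOTCH2 was the most abundant. In RPKM, which scales reads by gene length and sample total and so allows genes to be compared, its level was 19.0 ± 5.97 (SD, n = 3) in vector and 22.9 ± 4.91 (SD, n = 3) in oeRNF112. The NOTCH1 level was 3.62 ± 0.711 RPKM (SD, n = 3) in vector and 4.71 ± 0.823 RPKM (SD, n = 3) in oeRNF112. Within a sample the RPKM of NOTCH2 was 4.22 to 5.75 times that of NOTCH1 in vector and 4.64 to 5.15 times in oeRNF112, so that the ranges of this ratio overlapped. NOTCH3 (chr19:15159038-15200995) had 2, 3 and 1 counts in vector and 3, 2 and 1 counts in oeRNF112, which do not exceed the 3 counts that a count of 0 allows, a limit that covers counting error only.

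NOTCH1 (chr9:136494433-136546048 on GRCh38.p14, as for the other genes) had 31.5, 43.0 and 32.7 CPM in vector and 45.0, 36.0 and 49.6 CPM in oeRNF112. Vector replicate 2 lay above oeRNF112 replicate 2, and the groups overlapped. The log2 fold change was 0.29 (95% interval -0.05 to 0.62, edgeR adjusted p = 0.211). Without vector replicate 2 it was 0.44 (adjusted p = 0.0321), and it was not past the threshold in the 5 other fits that each left out 1 sample.

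NOTCH2 (chr1:119911553-120069662) had 218, 305 and 170 CPM in vector and 257, 211 and 315 CPM in oeRNF112. The highest value of each group was close to that of the other, and the lowest was vector replicate 3. The log2 fold change was 0.18 (95% interval -0.27 to 0.62, edgeR adjusted p = 0.574). Leaving out 1 sample at a time gave 0.00017 to 0.42, none past the threshold. NOTCH2 has partial copies in the genome, and the counting could have split reads between them. Of these, NOTCH2NLC rose, from 2.86, 4.08 and 2.64 CPM to 4.92, 7.08 and 5.74 CPM (log2 fold change 0.89, standard error (SE) 0.206, adjusted p = 0.0168). Without vector replicate 1 its adjusted p was 0.0774, at a log2 fold change of 0.83. NOTCH2NLA and NOTCH2NLB had log2 fold changes of 0.05 and 0.26 (adjusted p of 0.817 and 0.216). NOTCH4, the receptor of the endothelium, had 9 to 29 counts and a log2 fold change of -0.29 (adjusted p = 0.718), which was 0.38 without vector replicate 1.

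In the samples where NOTCH2, of 11784 bases, lay farthest above or below the mean of its group, the median of the long genes lay on the same side. In vector replicate 2 the 2323 genes longer than 8000 bases had a median of 0.19 on the log2 scale above the mean of their group, and the 2747 genes shorter than 2000 bases had a median of -0.16. OeRNF112 replicate 3 showed the same slope, with 0.15 and -0.13, and vector replicate 3 and oeRNF112 replicate 2 the opposite slope. NOTCH2 deviated by 0.44 in vector replicate 2 and by -0.40 in vector replicate 3, and by 0.29 in oeRNF112 replicate 3 and -0.29 in oeRNF112 replicate 2. The 9397 genes of 2000 to 8000 bases had medians between -0.0026 and 0.013 in all samples. JAG1 and JAG2, of 5940 and 5773 bases, fall in this class but deviated by more, JAG1 by up to 0.28 in vector replicate 2 and JAG2 by -0.60 in vector replicate 1. Between the groups, the median log2 fold change was 0.10 for the genes over 8000 bases and -0.12 for those under 2000 bases. With the trend on gene length removed in each sample, an alternative chosen after seeing the data, the log2 fold changes of NOTCH1, NOTCH2 and JAG1 were 0.18, 0.08 and -0.12 (adjusted p of 0.151, 0.622 and 0.390). In the same fit HES1 and HES4, of 1575 and 1920 bases, were at -0.93 and 0.95 and stayed past the threshold.

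**Figure D2:**
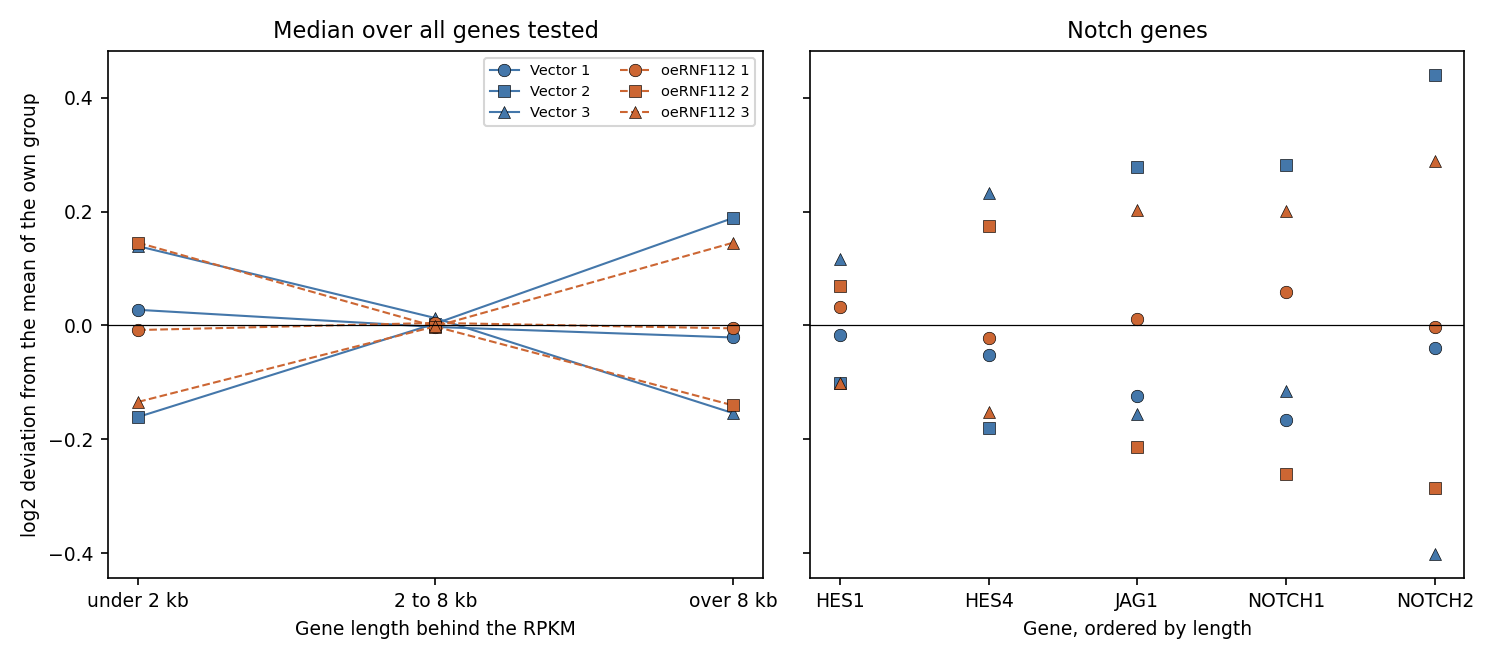
Deviation of each sample from the mean of its own group on the log2 scale, as the median over all genes tested in 3 classes of gene length (left) and for 5 Notch genes ordered by length (right), with blue for vector and orange for oeRNF112. Vector replicate 2 and oeRNF112 replicate 3 lie above 0 for genes over 8 kb and for NOTCH2, at 0.44 and 0.29, and below 0 for genes under 2 kb and for HES4.

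Among the ligands, JAG1 was the most abundant and did not pass the test, whereas the scarcer JAG2 and DLL1 rose. JAG1 (chr20:10637684-10673999) had 41.7, 55.1 and 40.8 CPM in vector and 43.1, 36.9 and 49.2 CPM in oeRNF112, and the groups overlapped. The log2 fold change was -0.09 (95% interval -0.41 to 0.23, edgeR adjusted p = 0.692), and it was above 0 with library totals and without vector replicate 2 or oeRNF112 replicate 2.

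JAG2 (chr14:105140995-105168776), the other JAG ligand, had 70, 141 and 122 counts in vector and 370, 271 and 260 counts in oeRNF112. These are 1.77, 3.53 and 3.16 CPM in vector and 8.93, 6.59 and 6.14 CPM in oeRNF112, with vector replicate 1 the lowest and no overlap between the groups. JAG2 rose by 1.36 on the log2 scale (SE 0.248, 95% interval 0.80 to 1.91, edgeR adjusted p = 0.00589). The RPKM of JAG1 was 12.5 to 22.9 times that of JAG2 in vector and 4.69 to 7.79 times in oeRNF112. On log2(RPKM + 1) the limma value for JAG2 was 0.64, still past the threshold.

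DLL1, a ligand of the DLL family, had 13, 14 and 13 counts in vector and 67, 30 and 60 counts in oeRNF112. The vector values were close to each other at 0.329 to 0.350 CPM, and the lowest oeRNF112 value, 0.730 CPM in replicate 2, lay above all of them. DLL1 rose by 1.88 on the log2 scale (SE 0.368, 95% interval 1.06 to 2.70, edgeR adjusted p = 0.00795). At so few counts the size depends on the scale, and limma gave 0.30 on log2(RPKM + 1) and 1.20 on log2(RPKM + 0.1), both past the threshold. In RefSeq, DLL1 on chromosome 6 (170282206 to 170291078 on GRCh38.p14) overlaps FAM120B, which had 926 to 1264 counts and a log2 fold change of -0.01 (adjusted p = 0.953). The strand setting of the counting is not given in the sources used here, so reads of the overlapping part could have been shared between DLL1 and FAM120B, and the DLL1 values are uncertain to that extent. No other member overlapped a gene of the table.

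Some of the further ligands rose as well. DNER, a neural membrane protein described as a Notch ligand, rose by 0.73 on the log2 scale (SE 0.0827, edgeR adjusted p = 0.000581), from 49.1 to 50.2 CPM in vector to 78.3 to 85.9 CPM in oeRNF112. EGFL7, a secreted protein that can bind Notch receptors, rose by 0.77 (SE 0.156, adjusted p = 0.00929). DLK2 and MFAP2 had log2 fold changes of 0.40 and 0.47 (adjusted p of 0.219 and 0.129). DLL3, DLL4 and MFAP5 failed the filter, with at most 5, 17 and 1 counts per sample. NOTCH4 included, 2 of the 5 genes tested in this group rose, where 9.97% of all genes tested did.

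The targets differed in direction. HES1 (chr3:194136148-194138732), a bHLH repressor and the best known Notch target, had 958, 913 and 1025 counts in vector and 506, 515 and 471 counts in oeRNF112. These are 24.2, 22.8 and 26.6 CPM in vector and 12.2, 12.5 and 11.1 CPM in oeRNF112. The groups were far apart, and the values within each group were close to each other. HES1 fell by 1.04 on the log2 scale (SE 0.106, 95% interval -1.27 to -0.80, edgeR adjusted p = 0.00035).

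HES4 (chr1:998964-1000097), a repressor of the same family, had 508, 470 and 604 counts in vector and 994, 1131 and 928 counts in oeRNF112. These are 12.8, 11.8 and 15.7 CPM in vector and 23.98, 27.5 and 21.9 CPM in oeRNF112, again without overlap. HES4 rose by 0.87 on the log2 scale (SE 0.134, 95% interval 0.57 to 1.17, edgeR adjusted p = 0.00263). The ratio of HES4 to HES1, which needs no scaling between samples, was 0.435, 0.422 and 0.483 in vector against 1.61, 1.80 and 1.62 in oeRNF112, in RPKM. By this ratio HES1 was the higher of the pair in every vector sample and HES4 in every oeRNF112 sample. The nearest gene above HES4 with counts is ISG15, 13400 bases away on chromosome 1, an interferon-induced gene that rose by 1.27 (SE 0.162, adjusted p = 0.00105). The nearest below is PERM1, 16871 bases away, with 6, 7 and 6 counts in vector and 1, 1 and 0 in oeRNF112, too few to be tested. The part of either neighbour in the HES4 result was not tested.

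HEY1, a repressor of the related HEY family, had 4.35, 3.40 and 5.21 CPM in vector and 5.98, 6.18 and 5.36 CPM in oeRNF112. The groups did not overlap, but vector replicate 3 and oeRNF112 replicate 3 were close. The log2 fold change was 0.44 (95% interval 0.05 to 0.82, edgeR adjusted p = 0.110). It passed the threshold with the length trend removed (0.49, adjusted p = 0.0260) and in limma on log2(RPKM + 1) (0.36, adjusted p = 0.0476).

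NRARP (chr9:137299631-137302271), an ankyrin repeat protein that limits Notch signaling as a feedback inhibitor, had 2.25, 1.88 and 2.88 CPM in vector and 2.51, 2.92 and 3.52 CPM in oeRNF112. Vector replicate 3 lay within the oeRNF112 range. The log2 fold change was 0.35 (95% interval -0.13 to 0.84, edgeR adjusted p = 0.283).

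Other members of the HES family moved as well. HES7, a repressor known from the segmentation clock of the embryo, had 36, 21 and 57 counts in vector and 199, 171 and 163 counts in oeRNF112, without overlap. It rose by 2.14 on the log2 scale (SE 0.303, edgeR adjusted p = 0.00172). HES6, known as an antagonist of HES1, rose by 0.58 (SE 0.154, adjusted p = 0.0290). HES2 had 3, 5 and 4 counts in vector and 15, 14 and 22 counts in oeRNF112 and rose by 1.97 (SE 0.460, adjusted p = 0.0170). HES2 passed the filter on low counts only through oeRNF112, where it was high, and had no value when 10 counts were required in every sample. With no filter beyond 1 count in total its adjusted p was 0.0282. The HES6 call was lost without vector replicate 1, oeRNF112 replicate 1 or oeRNF112 replicate 2 (0.63, 0.64 and 0.43). The HES2 call was lost without vector replicate 1 or oeRNF112 replicate 3 (1.82 and 1.76). With a replicate block in edgeR neither passed the threshold (adjusted p of 0.118 for HES6 and 0.0616 for HES2). Limma on log2(RPKM + 1) gave 0.82 for HES7 and 0.10 for HES2, the latter not past the threshold (adjusted p = 0.0721).

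HES5, HEY2 and HEYL had at most 2, 1 and 14 counts per sample and failed the filter on low counts. BHLHE41, a related repressor of the circadian clock, fell by 0.66 (SE 0.118, adjusted p = 0.00524), while BHLHE40 had a log2 fold change of 0.27 (adjusted p = 0.0572). BHLHE40 passed the threshold without vector replicate 2 (0.31, adjusted p = 0.0360) and in 5 of the 10 alternatives, which were library totals, DESeq2, limma with either pseudocount and the removal of the length trend (adjusted p of 0.0147 to 0.0464). Of the 5 genes tested in this group, HES2 included, 3 rose and 1 fell, where 9.97% and 8.14% of all genes tested did. All 5 passed in DESeq2 and in limma on log2(RPKM + 0.1).

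Summed over 9 HES and HEY genes, the level was 28.5, 26.6 and 31.7 RPKM in vector and 32.4, 36.1 and 30.3 RPKM in oeRNF112, so that the groups overlapped. HES1 made up 50.8% to 53.9% of this sum in vector and 22.3% to 24.8% in oeRNF112. HES4 made up 22.5% to 24.6% in vector and 39.5% to 40.2% in oeRNF112.

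**Figure D3:**
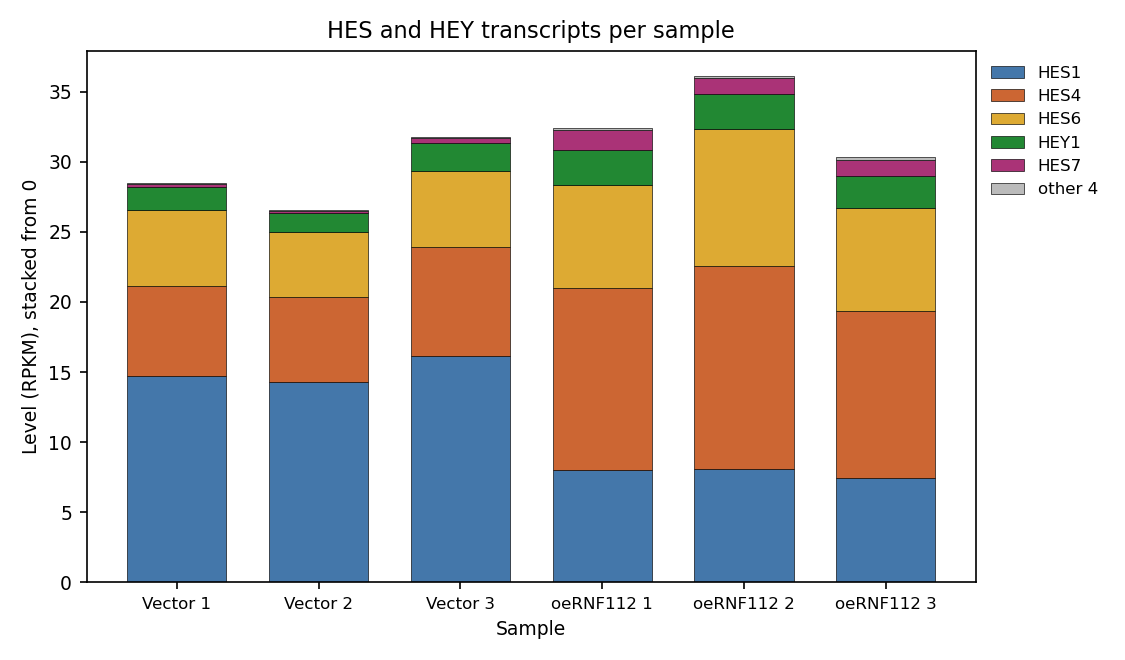
Level in RPKM of 9 HES and HEY genes in each sample, stacked from 0, with HES2, HES5, HEY2 and HEYL together as the other 4. HES1 is the tallest part in the vector samples, at 14.3 to 16.1 RPKM, and HES4 in the oeRNF112 samples, at 12.0 to 14.5 RPKM.

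Ordered by mean RPKM in vector, the Notch genes ran NOTCH2, HES1, JAG1, HES4, NOTCH1, HEY1, NRARP, JAG2, DLL1 and NOTCH3. The ranges of NOTCH2 and HES1 overlapped, as did those of JAG1 and HES4, and the other neighbours were apart. In oeRNF112 the order was NOTCH2, HES4, HES1, JAG1, NOTCH1, HEY1, JAG2, NRARP, DLL1 and NOTCH3, with overlap between HES1 and JAG1 and between JAG2 and NRARP. HES1 went from 15.1 ± 0.952 RPKM (SD, n = 3) to 7.83 ± 0.369 RPKM (SD, n = 3), and HES4 from 6.75 ± 0.925 RPKM (SD, n = 3) to 13.1 ± 1.29 RPKM (SD, n = 3).

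The rest of the pathway was described by a list of 75 genes, of which 70 were in the table and 62 were tested. Of these, 11 rose and 3 fell (22.6%), beside the 18.1% of all genes tested, and their median log2 fold change was 0.09. The genes that rose include HES2, which passed the filter on low counts only through oeRNF112. Without vector replicate 1 the number that changed was 8, and over all genes it was 1061 of 14768 instead of 2620 of 14467.

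None of the 7 genes tested for the nuclear complex passed the threshold, where 18.1% of all genes tested did. This group holds RBPJ, the DNA-binding protein of the pathway, and the coactivators MAML1, MAML2, MAML3, SNW1, EP300 and KAT2B, and their median log2 fold change was -0.01. None had an unadjusted p under 0.05 in edgeR, and 0 of the 7 passed in DESeq2 or limma. None of the 5 genes tested for receptor glycosylation passed edgeR's test, beside the same 18.1% of all genes tested, and their median was -0.05. In this group 3 genes had an unadjusted p under 0.05 in edgeR, in opposite directions. LFNG was at a log2 fold change of 0.86, and POFUT1 and POGLUT1 were at -0.25 and -0.30 (edgeR adjusted p of 0.0541, 0.0867 and 0.0646). Of the group, 0 passed in DESeq2 and 1 in limma.

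Of the 9 proteases that cut the receptor and their partners, 1 rose and 1 fell, which at 22.2% is near the 18.1% of all genes tested. PSEN2, a catalytic subunit of the gamma-secretase, rose by 0.41 on the log2 scale (SE 0.111, edgeR adjusted p = 0.0308). APH1A, a scaffold subunit of the same complex, fell by 0.36 (SE 0.0968, adjusted p = 0.0295). The calls held in 1 and in 2 of the 6 fits that each left out 1 sample, with log2 fold changes between 0.38 and 0.46 for PSEN2 and between -0.41 and -0.29 for APH1A. The fits that kept them were those without oeRNF112 replicate 2 for both and without vector replicate 2 for APH1A. Among the 10 alternatives, the APH1A call was lost in 4, with library totals among them (-0.27, edgeR adjusted p = 0.0625). The PSEN2 call was lost in 1 of the 10.

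Of the 4 ligases for ligand endocytosis, NEURL1 rose by 0.78 (SE 0.160, edgeR adjusted p = 0.0102). Among the 8 genes tested for receptor turnover, DTX4, a ligase of the Deltex family, rose by 1.22 (SE 0.139, adjusted p = 0.000614). DTX4 had 4.20, 5.38 and 4.15 CPM in vector and 10.9, 10.6 and 10.4 CPM in oeRNF112, with little spread in the second group. Among the 12 corepressors, TLE1, a partner of the HES repressors, rose by 0.30 (SE 0.0871, edgeR adjusted p = 0.0394). This call held in 1 of the 6 fits that each left out 1 sample, that without vector replicate 3. The log2 fold changes there were between 0.27 and 0.36, and the call was lost in 2 of the 10 alternatives. The genes called were 25% of these ligases, 12.5% of the turnover genes and 8.33% of the corepressors, beside 18.1% of all genes tested.

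Of the 4 other genes listed as targets in some tissues, CDKN1A, an inhibitor of cyclin-dependent kinases, rose by 0.85 (SE 0.0930, edgeR adjusted p = 0.000463). SOX9, a transcription factor of progenitor cells, fell by 0.68 (SE 0.0964, edgeR adjusted p = 0.00171). The 2 genes are 50% of this group, beside the 18.1% of all genes tested that changed. CDKN1A had 57.0 to 67.7 CPM in vector and 109 to 119 CPM in oeRNF112, and SOX9 had 154 to 170 CPM in vector and 92.4 to 111 CPM in oeRNF112, so that neither overlapped. CCND1 and MYC, the rest of this group, had log2 fold changes of -0.07 and -0.11 (edgeR adjusted p of 0.587 and 0.377).

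**Figure D4:**
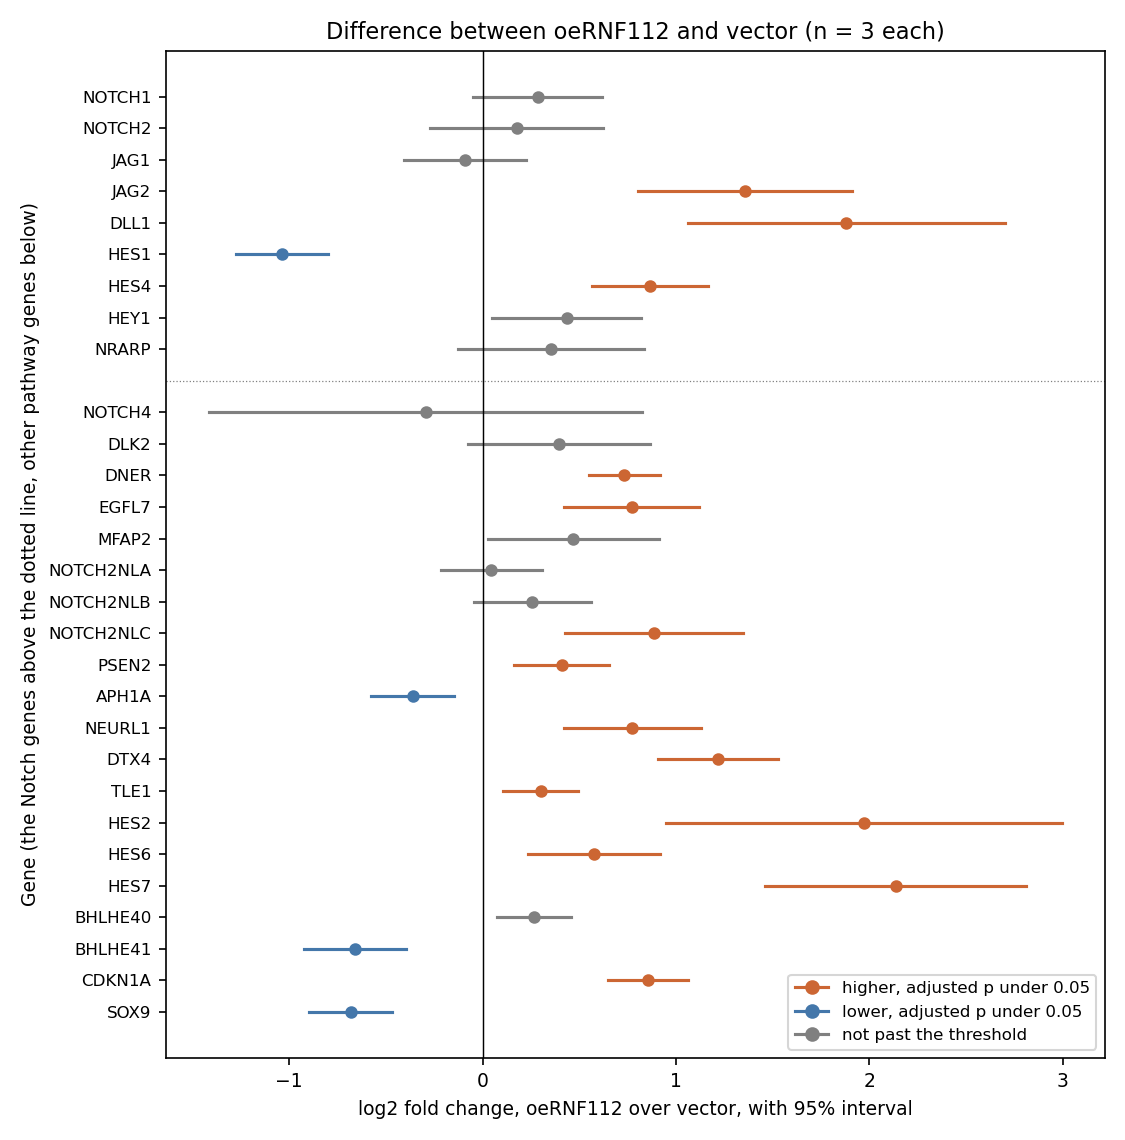
Log2 fold change of oeRNF112 over vector with its 95% interval from edgeR's quasi-likelihood fit, for the 9 Notch genes tested (above the dotted line) and for other pathway genes (below it), coloured by whether the adjusted p was under 0.05. HES1 lies at -1.04, opposite to HES4 at 0.87, HES7 at 2.14 and the ligands JAG2 and DLL1 at 1.36 and 1.88.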

How the data were processed

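Stranded mRNA libraries of T24 cells were sequenced, 3 for vector and 3 for oeRNF112. The authors deposited raw read counts per gene symbol and RPKM values. For the 16237 genes above 0 in every sample, the deposited RPKM and counts are tied by the sample total and 1 length per gene, to within a relative difference of 1e-06. The submitters' processing notes name Trimmomatic 0.36, featureCounts from Subread 1.5.1 and GRCh38, and the aligner, annotation and strand setting are not given in the sources used here. The depth, about equal in all samples, limits genes of a few counts, and limits covered counting error only.

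Counts were tested with edgeR 4.0.16 in R 4.3.3 (filterByExpr with a minimum count of 10, TMM factors, quasi-likelihood F-test, all 6 samples, no covariate). The standard error is the absolute log2 fold change divided by the root of F. The scripts were tested on simulated data. The members and lists were chosen with earlier results of these data known. Named genes were RNF112, the members, all genes of the groups of other receptors and ligands, NOTCH2 copies and other HES or HEY genes, and the called genes of the other groups. FAM120B, ISG15, PERM1, LFNG, POFUT1, POGLUT1, CCND1, MYC and the genes sharing the facing sites were named after their values were seen. DLK1, HES3, HELT, NOTCH2NLR and NOTCH2NL had no row under these symbols among the genes of the table, so they have no values here. Of the fibroblast markers, COL1A2, DCN and LUM had under 10 counts in every sample. Alternatives were DESeq2 1.42.0, limma 3.58.1 on log2(RPKM + 1) and log2(RPKM + 0.1), other scalings and filters, a replicate block and each sample left out. A loess offset on gene length (span 0.3) was added after seeing the data. Promoters were from RefSeq on GRCh38.p14, with the 50 bases after the start left out. The value of 1 leukocyte marker is not reported here.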

Additional observations from a re-analysis of the deposited data

How the results depend on the processing

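HES1, HES4, JAG2 and DLL1 kept their direction and an adjusted p under 0.05 in all 10 alternatives, the added length correction included, and in all 6 fits that each left out 1 sample. In the latter the log2 fold changes went from -1.09 to -0.98 for HES1, from 0.78 to 0.99 for HES4, from 1.12 to 1.55 for JAG2 and from 1.66 to 2.17 for DLL1. The number of Notch genes that changed was 4 or 5 in every fit. JAG1, not past the threshold anywhere, was at 0.0022 with library totals and at 0.0055 and 0.0065 in limma on log2(RPKM + 1) and log2(RPKM + 0.1), and went from -0.198 to 0.060 when samples were left out. NOTCH1 went from 0.18 to 0.44 there, the highest without vector replicate 2. HEY1 passed the threshold at 0.36 in limma on log2(RPKM + 1) and at 0.49 with the length trend removed. NOTCH2 and NRARP had no change of direction or call in these fits. NOTCH4 went from -0.61 to 0.38 and NOTCH2NLA from -0.024 to 0.128 when samples were left out, and NOTCH2NLA was at -0.051 with the length trend removed. The cause of these changes was not tested.

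Over all genes, the replicate block left 876 genes, 618 higher and 258 lower, and 9 of the other pathway genes. The labels do not state that the replicate numbers mark a shared day or batch. Same-numbered samples had correlations of -0.116, -0.363 and -0.296 between their deviations, and none correlated best with its own number. With 3 samples per group and deviations that followed gene length, these correlations cannot decide whether the samples were paired. Removing the length trend gave 4153 genes, 2028 of them lower, and 25 other pathway genes. The lower genes numbered 659 with library totals (75.4% of the called genes higher, against 55.0%) and 669 and 682 in limma on RPKM with a pseudocount of 1 and 0.1. Leaving out 1 sample gave 1061 genes (vector replicate 1) to 3387 (vector replicate 2), 1263 and 1446 without oeRNF112 replicates 1 and 3, with 702 to 1841 higher, 359 to 1546 lower and 8 to 17 other pathway genes. For the 20 other named pathway genes, 198 values outside those fits held 10 lost calls, 6 gained calls (BHLHE40 and MFAP2) and 1 change of sign. The lost calls were those of APH1A, HES2, HES6, PSEN2 and TLE1. The level order of the Notch genes was the same after rescaling by the TMM factors.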
